A study of Gossypium barbadense and Gossypium hirsutum with 8 samples.

Results

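The genes described here form a group of 17 among the 59006 genes listed for cotton fibers, selected on their measured levels. In both species they were low at 5 days post anthesis (DPA) relative to the last stage. By 15 DPA they stood at a larger share of the last-stage level in Gossypium hirsutum than in Gossypium barbadense. Levels were given as RPKM (reads divided by gene length and by library size) and, for the choice, scaled so that each library summed to 300000. A gene had to reach 10 RPKM in both last-stage libraries. In G. hirsutum its scaled level had to be at least 50% of its last-stage level at 15 DPA and at most 25% of it at 5 DPA. In G. barbadense it had to be at most 20% of its last-stage level at 5, 10 and 15 DPA. The members were thus chosen by the values of 7 of the 8 libraries, and the course of a member in those libraries is a description, not a finding. The G. hirsutum library of 10 DPA was the only one in no condition.

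The study compared fiber RNA of upland cotton, G. hirsutum, with that of the extra-long-staple cotton, G. barbadense. RNA was taken at 5, 10, 15 and 20 DPA and each of the 8 combinations of species and age is 1 library. In the descriptions the oldest samples are labelled 20 DPA, but their titles hold the number 25; they are called 20 DPA below. The sources used here do not give cultivars, growth conditions or plants per library, and no group was replicated, so the values below carry no replicate error and no p-value.

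Each cotton fiber is 1 elongated cell of the seed coat. It first lengthens, with loosening of a thin primary wall, and then passes through a transition to a thick secondary wall that is almost pure cellulose. Fibers of G. barbadense are known for elongating over a longer period than those of G. hirsutum, and when late genes turn on in each species is therefore a question of timing as well as of level. The identifiers carry no gene names: 0 of the 59006 were found among the 74561 G. barbadense genes of the reference table, so the roles of the members are not given, and markers of fiber or of other seed tissues were not looked at. An identifier such as Gh_D06G0940 places a gene on chromosome D06 of the D subgenome, and Sca identifiers lie on unplaced scaffolds. A transcript level per library cannot tell more RNA per cell from more cells that hold it.

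Summed over all genes, the deposited RPKM ranged from 138198 in G. hirsutum at 5 DPA to 503585 in G. barbadense at 10 DPA. At 15 DPA the sums were 252850 in G. hirsutum and 380030 in G. barbadense. Scaling to a common sum therefore moved the 15 DPA species ratio of every gene towards G. hirsutum. Among all genes at 5 or more in either library, the median log2 ratio of G. hirsutum over G. barbadense at 15 DPA was 0.23 after scaling and -0.58 as deposited. Shares of the 20 DPA level are in scaled values throughout, and species ratios are given both scaled and as deposited where they summarise a set of genes; the members' ratios are best read against those medians. The scaling also decides the membership: of the 17 genes, 5 met the conditions under all 5 scalings tried (Gh_A01G1734, Gh_A11G1051, Gh_D07G2256, Gh_A03G0635 and Gh_Sca134781G01).

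The 2 most abundant members, Gh_D06G0940 and Gh_A06G0811, carried most of the group's RNA and had nearly the same level in every library. Gh_D06G0940 measured 372, 3195, 4823 and 8642 RPKM from 5 to 20 DPA in G. hirsutum, against 904, 2031, 2932 and 13431 RPKM in G. barbadense. Gh_A06G0811 measured 370, 3171, 4625 and 8660 RPKM in G. hirsutum, with 975, 2175, 2845 and 13954 RPKM in G. barbadense. Both genes were lower in G. hirsutum than in G. barbadense at 5 DPA, higher at 10 and 15 DPA, and lower again at 20 DPA, on the deposited and on the scaled values. The ratio of the D to the A identifier lay between 0.927 and 1.04 over the 8 libraries, and how reads that fit both were assigned is not given in the sources used here. In scaled values Gh_D06G0940 was 2.47-fold higher in G. hirsutum at 15 DPA and 1.43-fold higher in G. barbadense at 20 DPA. From 15 to 20 DPA its scaled level changed 1.52-fold in G. hirsutum and 5.37-fold in G. barbadense. Both genes met the conditions under 2 of the 5 scalings tried. As chosen, all members shared the late step in G. barbadense, and in 10 of the 17 the scaled level in G. hirsutum was higher at each stage than at the one before.

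**Figure D1:**
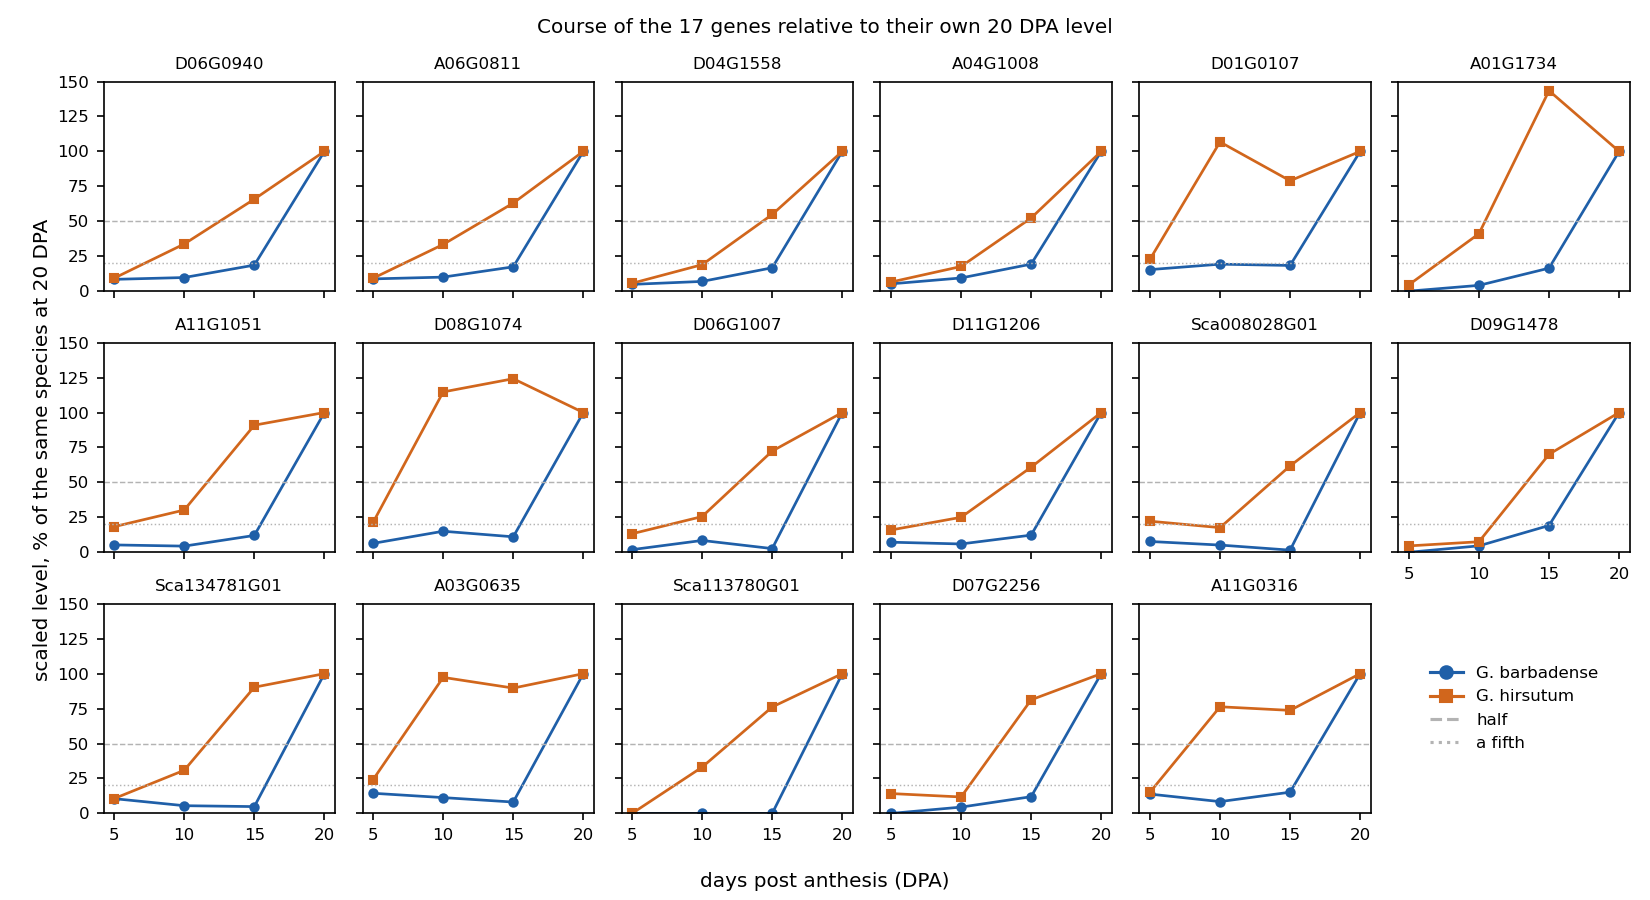
Scaled level of each of the 17 genes at 5, 10, 15 and 20 DPA (x axis) as a percentage of its level at 20 DPA in the same species (y axis), with 1 library per point, circles for G. barbadense and squares for G. hirsutum; the dashed and dotted lines mark 50% and 20%. At 15 DPA the G. hirsutum points lie between 52.3% and 143% and the G. barbadense points between 0% and 19.3%, as the choice of genes required.

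The next pair by level, Gh_D04G1558 and Gh_A04G1008, differed little between the species at 15 DPA as deposited. Gh_D04G1558 measured 12.9, 103, 230 and 494 RPKM from 5 to 20 DPA in G. hirsutum, against 38.4, 107, 195 and 995 RPKM in G. barbadense. Gh_A04G1008 measured 15.3, 98.0, 225 and 507 RPKM in G. hirsutum, beside 40.1, 141, 219 and 965 RPKM in G. barbadense. At 15 DPA the deposited values of Gh_A04G1008 in the 2 species were thus 225 and 219 RPKM, a log2 ratio of 0.04, while at 20 DPA it was lower in G. hirsutum by a log2 ratio of -0.93. After scaling the ratios were 0.63 and -0.81. In G. barbadense the scaled level of this gene was already 3.71-fold higher at 15 than at 5 DPA, and that of Gh_D04G1558 3.45-fold. For this pair the name of the group as genes on at 15 DPA in G. hirsutum describes a share of the final level, not a level that G. barbadense lacked.

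Gh_A01G1734 and Gh_A11G1051 had the largest 15 DPA ratios among the members at 20 RPKM or more. Gh_A01G1734 measured 1.43, 30.7, 82.8 and 68.1 RPKM from 5 to 20 DPA in G. hirsutum, against 0, 4.25, 12.8 and 66.1 RPKM in G. barbadense. It was 9.76-fold higher in G. hirsutum at 15 DPA after scaling, reached 143% of its 20 DPA level there, and stood at like levels in both species at 20 DPA. Gh_A11G1051 measured 9.00, 35.2, 81.8 and 106 RPKM in G. hirsutum, with 11.7, 19.1, 39.3 and 278 RPKM in G. barbadense. Its scaled ratio was 3.13 towards G. hirsutum at 15 DPA and 2.41 towards G. barbadense at 20 DPA, so that the species exchanged places between those stages.

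In 4 members, grouped after their values were seen, the scaled level in G. hirsutum was at 76.3% to 115% of its 20 DPA value by 10 DPA. Gh_D01G0107 measured 13.5, 150, 85.7 and 128 RPKM from 5 to 20 DPA in G. hirsutum, against 25.1, 61.1, 43.9 and 204 RPKM in G. barbadense. Its scaled level at 10 DPA was 107% of that at 20 DPA in G. hirsutum and 19.3% in G. barbadense. Gh_D08G1074 measured 1.81, 23.0, 19.2 and 18.3 RPKM in G. hirsutum, beside 1.76, 8.09, 4.49 and 34.6 RPKM in G. barbadense. It and Gh_A01G1734 were the 2 members whose scaled level in G. hirsutum was higher at 15 than at 20 DPA. Gh_A03G0635 stood at 12.2, 8.68 and 11.4 RPKM at 10, 15 and 20 DPA in G. hirsutum, against 4.37, 2.37 and 24.9 RPKM in G. barbadense. At the same stages Gh_A11G0316 stood at 8.47, 6.33 and 10.1 RPKM in G. hirsutum; its values in G. barbadense were 2.46, 3.34 and 18.8 RPKM.

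**Figure D2:**
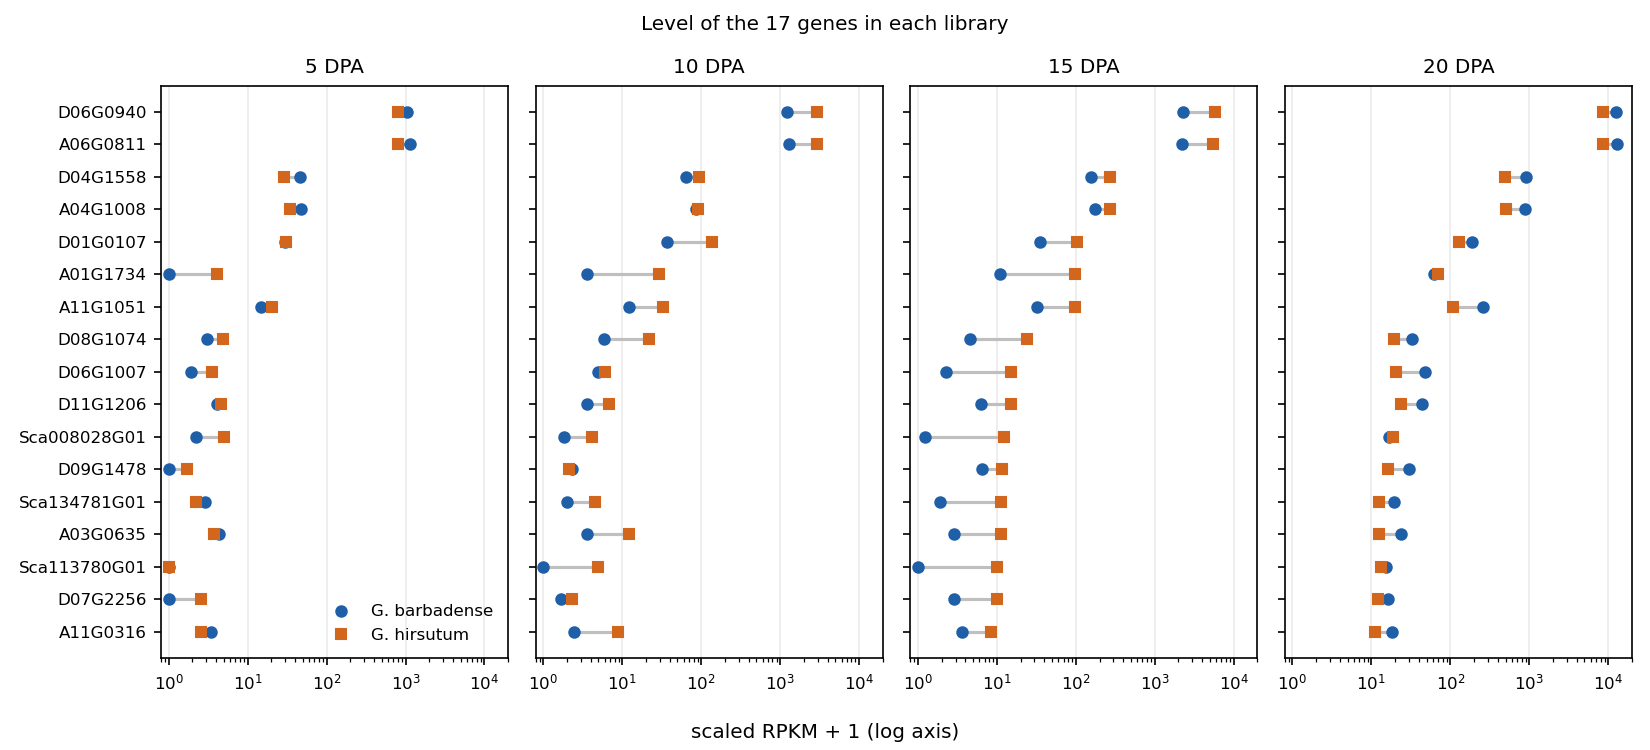
Scaled RPKM plus 1 (log x axis) of each of the 17 genes (rows, in order of RPKM in G. hirsutum at 15 DPA) in 1 library per species at each stage, with circles for G. barbadense and squares for G. hirsutum. All 17 genes lie further right in G. hirsutum at 15 DPA, and 15 of them lie further right in G. barbadense at 20 DPA.

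In Gh_D09G1478, Gh_D07G2256 and Gh_D11G1206 the level was higher at 15 than at 10 DPA in both species. Gh_D09G1478 measured 0.32, 1.25, 8.99 and 15.1 RPKM from 5 to 20 DPA in G. hirsutum, against 0, 2.23, 7.01 and 31.2 RPKM in G. barbadense. Gh_D07G2256 measured 0.73, 1.43, 7.64 and 11.1 RPKM in G. hirsutum, with 0, 1.16, 2.32 and 16.5 RPKM in G. barbadense. Gh_D11G1206 measured 1.68, 6.24, 11.7 and 22.8 RPKM in G. hirsutum, beside 2.66, 4.27, 6.65 and 46.2 RPKM in G. barbadense. From 10 to 15 DPA the scaled level changed 9.30-fold in Gh_D09G1478, 6.91-fold in Gh_D07G2256 and 2.43-fold in Gh_D11G1206 in G. hirsutum. In G. barbadense the same step was 4.17-fold, 2.65-fold and 2.06-fold.

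In the remaining 4 low members the level did not increase between 10 and 15 DPA in G. barbadense. Gh_D06G1007 went from 5.43 to 11.9 RPKM between 10 and 15 DPA in G. hirsutum and from 6.71 to 1.58 RPKM in G. barbadense, before reaching 19.4 and 51.1 RPKM at 20 DPA. Gh_Sca008028G01 went from 3.47 to 9.41 RPKM in G. hirsutum and from 1.38 to 0.31 RPKM in G. barbadense, and stood at 18.0 and 17.2 RPKM at 20 DPA. Gh_Sca134781G01 went from 3.85 to 8.71 RPKM in G. hirsutum and from 1.68 to 1.12 RPKM in G. barbadense. Gh_Sca113780G01 was listed at 0 at 5, 10 and 15 DPA in G. barbadense and stood at 15.5 RPKM at 20 DPA, while in G. hirsutum it went from 0 to 4.35, 7.74 and 11.99 RPKM. These 4 genes and Gh_A01G1734 had the highest species ratios at 15 DPA on the log2(RPKM + 1) scale, 2.59 to 3.35 after scaling and 2.20 to 3.13 as deposited. On that scale the added 1 lowers the ratios of genes near 0, and for Gh_Sca113780G01, listed at 0 in G. barbadense, the value depends on it wholly. All 3 scaffold members were among the 4.

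The reads behind the low values could be estimated for 6 members from the steps between their RPKM values. The estimate took the largest step of which the values are whole multiples, so the true numbers may be higher. Gh_Sca134781G01 rested on 16 reads in G. hirsutum and 2 reads in G. barbadense at 15 DPA, a scaled ratio of 11.8 with an exact 95% binomial interval of 2.77 to 106. Gh_D06G1007 rested on 31 and 4 reads (ratio 11.4, 4.04 to 44.6), and Gh_Sca008028G01 on 62 and 2 reads (ratio 45.7, 12.1 to 386). Gh_D08G1074 rested on 22 and 5 reads (ratio 6.49, 2.40 to 21.9) and Gh_A01G1734 on 59 and 9 reads (ratio 9.67, 4.76 to 22.2). Gh_D09G1478 rested on 29 and 22 reads (ratio 1.94, 1.08 to 3.55). These intervals show the counting precision alone, not the spread between plants. Both 15 DPA libraries took part in the choice, on the high side in G. hirsutum and the low side in G. barbadense, so nothing is read from where an interval lies relative to a ratio of 1.

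Most members were higher in G. hirsutum already at 10 DPA, the stage at which its library took no part in the choice. After scaling, 16 of the 17 members were higher in G. hirsutum at 10 DPA, the exception being Gh_D09G1478, and 13 were higher as deposited. Of the 17, 11 reached a scaled RPKM of 5 in either species at that stage, and 8 of these were at least 2-fold higher in G. hirsutum on the log2(scaled RPKM + 1) scale. Of all genes reaching that level, 19.7% were. As deposited, 5 of the 12 members reaching 5 RPKM were 2-fold higher in G. hirsutum, against 8.32% of all such genes. The median log2 ratio over the 17 members at 10 DPA was 1.20 scaled and 0.85 as deposited, against -0.19 and -0.98 over all genes reaching 5. Over the 2471 genes at 10 RPKM or more in both 20 DPA libraries it was 0.38 and -0.16. These counts are a description: the G. barbadense library of 10 DPA did take part in the choice, and a member that reached 5 through G. hirsutum alone had to differ.

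Set against other late genes, the 10 DPA level was not particular to the members. A gene is called late-rising here if it had 10 RPKM or more in both 20 DPA libraries and a scaled 5 DPA level of at most 25% of that at 20 DPA in both species, which 382 genes, the 17 included, did. The members stood at a median of 30.9% of their 20 DPA level at 10 DPA in G. hirsutum (range 7.54% to 115%). The 70 other late-rising genes that had also reached 50% by 15 DPA in G. hirsutum stood at a median of 41.6%, and the 295 that had not at 5.13%. At 10 DPA the median log2 ratio of G. hirsutum over G. barbadense was 1.08 in those 70 genes after scaling, beside 1.20 in the members, and 0.57 beside 0.85 as deposited. Of all other late-rising genes reaching 5 at 10 DPA, 90 of 182 (49.5%) were 2-fold higher in G. hirsutum after scaling. As deposited 57 of 198 (28.8%) were. In G. hirsutum the genes at 50% or more by 15 DPA, members and others alike, thus had the higher median share at 10 DPA. Both shares are divided by the same 20 DPA value, which by itself ties them together in part. Only group medians were compared, and no relation within the members is read from them. In G. barbadense the medians at 10 DPA were 6.95% in the members, which the choice held low, 17.4% in the 70 genes and 2.57% in the 295.

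**Figure D3:**
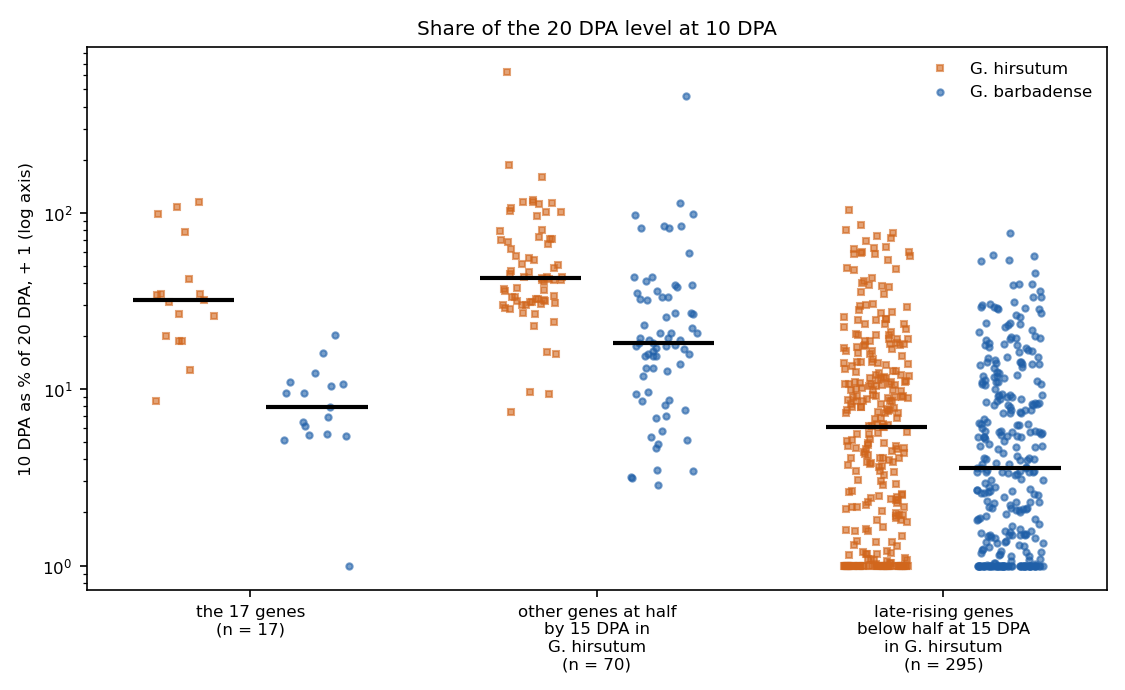
Scaled level at 10 DPA as a percentage of that at 20 DPA, plus 1 (log y axis), for the 17 genes, the 70 other late-rising genes at 50% or more by 15 DPA in G. hirsutum, and the 295 late-rising genes below 50%, with 1 point per gene, squares for G. hirsutum, circles for G. barbadense and bars at the medians. In G. hirsutum the medians are 30.9%, 41.6% and 5.13%, before the 1 is added.

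How far the late-rising genes as a whole had come by 15 DPA differed between the species, by an amount that depended on the scaling. Of the 382 genes, 87 (22.8%) were at 50% or more of their 20 DPA level by 15 DPA in G. hirsutum and 45 (11.8%) in G. barbadense, 29 of them in both. Their median shares at 15 DPA were 14.8% and 8.09%. Over all 2471 genes at 10 RPKM or more in both 20 DPA libraries, the medians after scaling were 94.3% and 74.5%. A higher share in G. hirsutum was therefore not particular to late-rising genes. The share reached by 15 DPA was higher in G. hirsutum for 247 of the 382 genes (64.7%) after scaling and for 206 of the same genes (53.9%) as deposited. The 87 genes at 50% or more in G. hirsutum include the members. Of these 87, the members are those that had stayed at or below 20% in G. barbadense at every stage before 20 DPA. They were not the genes furthest along in G. hirsutum: their median share at 15 DPA was 73.7%, against 102% in the 70 other genes past 50%. With the species exchanged, the same conditions found 1 gene, Gh_D10G0217, which went from 6.85 RPKM at 15 DPA to 11.6 RPKM at 20 DPA in G. barbadense and from 3.33 to 37.8 RPKM in G. hirsutum. Under the other scalings 17 to 38 genes met the conditions as given and 2 or 3 the exchanged ones. Gh_D10G0217 met the exchanged ones as deposited. It did not with median-of-ratios factors, with sums taken without the 100 most abundant genes or with quantile normalization.

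**Figure D4:**
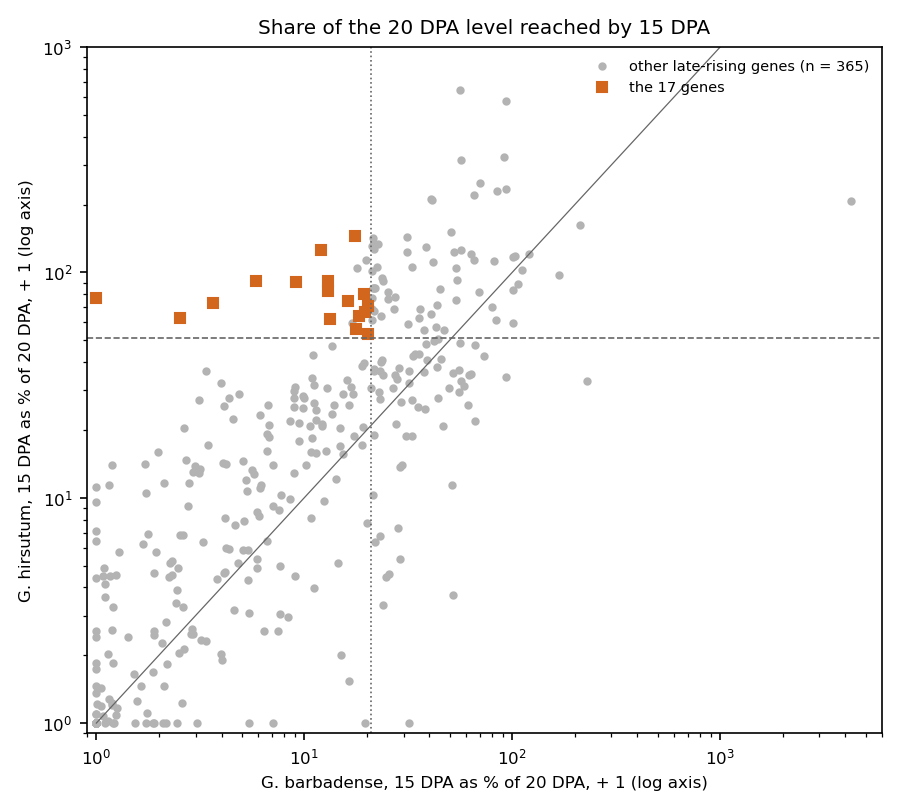
Scaled level at 15 DPA as a percentage of that at 20 DPA, plus 1, in G. barbadense (x, log axis) and G. hirsutum (y, log axis) for the 17 genes (squares) and the 365 other late-rising genes (dots), with 1 library per value. The diagonal marks equality and the broken lines the conditions of the choice, 50% in G. hirsutum and 20% in G. barbadense; 247 of the 382 genes lie above the diagonal.

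A species difference in the share of the 20 DPA level combines the species ratios at 15 and at 20 DPA, which are given here as a description, since the choice used all 4 libraries. All 17 were higher in G. hirsutum at 15 DPA, by a median of 1.61 on the log2(RPKM + 1) scale after scaling and 1.04 as deposited. After scaling, 14 of the 17 were at least 2-fold higher there, beside 30.1% of all genes reaching 5; as deposited 9 of the 17 were, beside 16.3%. At 20 DPA, 15 of the 17 were higher in G. barbadense, by a median of 0.71 over all 17 after scaling and 0.83 as deposited. Of the 17, 2 were 2-fold higher in G. barbadense at 20 DPA after scaling, beside 10.7% of all genes reaching 5; as deposited 4 were, beside 13.6%. The 2 after scaling were Gh_D06G1007 and Gh_A11G1051, with scaled ratios of 2.42 and 2.41, while Gh_Sca008028G01 and Gh_A01G1734 were the 2 members higher in G. hirsutum at that stage, 1.14-fold and 1.12-fold. Nothing is read from these counts. In the 70 other genes past 50% by 15 DPA in G. hirsutum, the median ratio at 20 DPA was -0.02 after scaling and 0.10 as deposited, where positive values are towards G. barbadense. The difference at 20 DPA was the larger part for 3 members after scaling and for 6 as deposited, the D04 and A04 pair among them. At 5 DPA the members lay on either side, 9 higher in G. hirsutum and 7 in G. barbadense after scaling, and 6 and 10 as deposited.

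The 17 genes accounted for 0.581%, 2.10%, 4.06% and 6.29% of the summed RPKM at the 4 stages in G. hirsutum and 0.776%, 0.908%, 1.66% and 9.31% in G. barbadense. Nearly all of it lay in the D06 and A06 pair, without which the shares at 15 DPA were 0.318% and 0.142%. The order of the species was the same with and without that pair at 15 and 20 DPA.

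Of the 17 identifiers, 6 were from the A subgenome, 8 from the D subgenome and 3 from unplaced scaffolds, and those on chromosomes were spread over 12 of them. Scaffolds held 17.6% of the members, 3.98% of all listed genes and 4.71% of the late-rising genes. For each of the 14 members on chromosomes, the gene nearest in level was looked up on the same-numbered chromosome of the other subgenome. Nearness was the mean absolute difference in log2(scaled RPKM + 1) over the 8 libraries, so a gene of like course at another level was passed over. For 4 of them it was a member, in the D06 and A06 pair and the D04 and A04 pair, and for the other 10 it was not. Of those 10 genes, 3 (Gh_D11G3344, Gh_A09G2067 and Gh_A07G1204) had reached 29.6%, 31.1% and 32.8% of their 20 DPA level by 15 DPA in G. hirsutum, below the 50% required. Another 3 were above 20% at 15 DPA in G. barbadense, Gh_A11G2383 at 21.3%, Gh_D01G1827 at 29.0% and Gh_A08G2403 at 36.3%. The remaining 4 met both conditions on 15 DPA and failed on others. Gh_A01G0110 was the nearest to Gh_D01G0107, with 16.4, 142, 82.9 and 129 RPKM in G. hirsutum and 34.9, 51.1, 42.4 and 194 RPKM in G. barbadense, and its 5 DPA levels were 27.5% and 22.5% of those at 20 DPA. Gh_A06G0909 stood at 37.3% at 5 DPA in G. hirsutum, and Gh_D03G0923 at 35.0% there with 9.86 RPKM at 20 DPA. Gh_D11G0371 stood at 34.3% at 5 DPA in G. barbadense. A likeness in level was fixed by this choice, from 321 to 738 genes per chromosome. The genes were paired with members by level and chromosome number, not by sequence. Pearson correlation can order them otherwise. By it Gh_A11G1051 was closer to the member Gh_D11G1206 (0.989) than to Gh_D11G3344 (0.899). In contrast, Gh_A11G0316 was closer to Gh_D11G0371 (0.961) than to Gh_D11G1206 (0.925).

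Nearest to the limits inside the group were Gh_A04G1008, at 52.3% by 15 DPA in G. hirsutum and 19.3% in G. barbadense, and Gh_D01G0107, at 15.4% for 5 DPA and 19.3% for 10 DPA in G. barbadense. Gh_A03G0635 lay at 24.2% at 5 DPA in G. hirsutum, and the lowest 20 DPA values were 10.1 RPKM for Gh_A11G0316 in G. hirsutum and 15.5 RPKM for Gh_Sca113780G01 in G. barbadense. Just outside, each failing 1 condition, were Gh_D04G0812, at 20.05% at 15 DPA in G. barbadense, and Gh_A01G0933, at 46.0% at 15 DPA in G. hirsutum. Gh_A06G1051 lay at 27.6% at 5 DPA in G. hirsutum, Gh_A01G0275 at 20.997% at 5 DPA and Gh_A02G0930 at 31.2% at 10 DPA in G. barbadense. Gh_A05G0939 stood at 8.15 RPKM in G. hirsutum and Gh_A04G0093 at 4.26 RPKM in G. barbadense at 20 DPA. The condition on 15 DPA in G. barbadense alone kept out 39 genes, and that on 15 DPA in G. hirsutum alone 218.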

How the data were processed

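Fiber RNA of 2 species at 4 stages was sequenced as 8 libraries. The authors deposited 1 table of RPKM values, used here in all 8 columns, which were matched to samples by title; per the submitters' processing notes the tools were cutadapt, Bowtie2 and edgeR (versions and roles unstated). Build, annotation and the handling of multiply fitting reads: not given in the sources used here. Members and lists were chosen with earlier results of these data known. No test was run, since each group is 1 library and the choice used 7 of the 8. Counts past a fold of 2 are on the log2(value + 1) scale, with a minimum of 5 in the higher library. Members were named by fixed questions (highest level, largest ratios, extremes of the 10 and 15 DPA shares, most alike A and D pairs by Pearson correlation, values nearest each limit), 2 per question because the identifiers have no names; this named 13, and the other 4, their groupings and the counterpart genes were named after their values were seen. The library sizes in the authors' scaling, read from low values, were 0.975 to 1.16 times that of G. barbadense 5 DPA. Steps were sought in values up to 40 reads, within 0.15 reads. A step was used where at most 10% of 1000 randomly altered copies of a gene's values gave one. A read also had to be worth at most 2 RPKM. Gh_D06G0940 met the limit of 10% (2.8%) with a step of 179 RPKM per read, and only the limit of 2 RPKM left it out. The conditions of the choice and the search for steps were tested on simulated data. The library sizes and the limit of 10% were not. Computations used scipy 1.17.1, numpy 2.4.6, pandas 2.3.3 and Python 3.11.15.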

Additional observations from a re-analysis of the deposited data

Results flagged for a closer look

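Gh_D06G1007 went opposite ways in the species between 10 and 15 DPA, by 1.34 on the log2(scaled RPKM + 1) scale in G. hirsutum and -1.15 in G. barbadense, a difference of 2.49. The difference was not tested, since each value is 1 library, and the G. barbadense values rest on an estimated 17 and 4 reads. The choice of genes also held the 15 DPA level high in G. hirsutum and low in G. barbadense, which favors such a difference. Other members had opposite steps too after scaling, 1.54 and -0.55 in Gh_Sca008028G01 and 1.32 and -0.09 in Gh_Sca134781G01. Their G. barbadense values rest on an estimated 9 and 2 reads and 3 and 2 reads. In Gh_D08G1074 the steps were 0.11 and -0.36, and in Gh_A11G0316 the reverse, -0.04 and 0.56. As deposited Gh_D08G1074 was lower at 15 than at 10 DPA in both species. It went from 23.0 to 19.2 RPKM in G. hirsutum and from 8.09 to 4.49 RPKM in G. barbadense.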

How the results depend on the processing

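Which genes met the conditions depended on the scaling. As deposited 17 genes did, 10 of them members. With median-of-ratios factors 30 did (7 members), with sums taken without the 100 most abundant genes 38 (16 members), and with quantile normalization 32 (13 members). Under all 5 scalings 5 members met them: Gh_A01G1734, Gh_A11G1051, Gh_D07G2256, Gh_A03G0635 and Gh_Sca134781G01. The D06 and A06 pair and Gh_D04G1558 did so in 2, and Gh_A04G1008 in the scaling of the choice alone. The number was 8 at a minimum of 20 RPKM, 8 with 75% in place of 50% in G. hirsutum, 35 and 3 with 30% and 10% in place of 20% in G. barbadense, 31 without the G. hirsutum 5 DPA condition and 56 without the G. barbadense 15 DPA condition.

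With the species exchanged, the number was 2 as deposited, 3 by median-of-ratios, and 2 without the 100 most abundant genes and with quantile normalization. It was 4 at 5 RPKM, 0 at 20 RPKM, 0 at 75%, 5 at 30%, 0 at 10%, and 4, 3 and 6 without the conditions on G. barbadense 5 DPA, G. hirsutum 5 DPA and G. hirsutum 15 DPA.

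All 17 members were higher in G. hirsutum at 15 DPA under the 5 scalings, the median log2 ratio ranging from 1.04 to 1.68. The choice of genes favored this direction, so nothing is read from it. The lowest ratio of a member was 0.04 as deposited and 0.71 with quantile normalization. Over all genes reaching 5 the median ranged from -0.58 as deposited to 0.27 without the 100 most abundant genes. As deposited 5 members were 2-fold higher in G. hirsutum at 10 DPA. In G. hirsutum the median 10 DPA level over all 17 members was 33.8% of that at 20 DPA as deposited and 19.8% by median-of-ratios. It was 24.8% without the 100 most abundant genes and 24.1% with quantile normalization. The late-rising genes at 50% by 15 DPA were 33.5%, 27.3% and 28.2% in G. hirsutum as deposited, without the 100 most abundant genes and with quantile normalization, 18.4% at 20 RPKM, and 26.0% in G. barbadense as deposited; G. hirsutum had the higher share in every setting run. Without the 100 most abundant genes in members and sum, the members' share at 15 DPA was 0.354% and 0.126%, and without the most abundant member 2.15% and 0.890%, in G. hirsutum and G. barbadense. The cause of these changes was not tested. No paired analysis was possible because each species and stage is 1 library and no result comes from a test. Depth limits the low members most, with 2 to 22 reads at 15 DPA in G. barbadense where reads could be estimated.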
